A study of Mus musculus with 6 samples.

Results

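Sox5, Sox6 and Sox9 were taken by symbol as 3 of the 30406 genes listed for all 6 libraries, and their counts were read in every cell population and at every time point. All 3 encode transcription factors that bend DNA through an HMG box. Sox9, of the SoxE group, is required for mesenchymal cells to condense and become chondrocytes, and it drives Col2a1, the chain of type II collagen. Sox5 and Sox6, of the SoxD group, carry no activation domain of their own. In cartilage they bind with Sox9 at enhancers of matrix genes, and they are partly redundant with each other. Outside cartilage Sox6 is known for silencing slow-fibre genes in skeletal muscle.

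Single-nucleus RNA-seq (10x Genomics 3′ v3.1 chemistry) was performed on sorted nuclei of tibial periosteum from C57BL6 mice (C57BL/6ScNj in the study's methods) 12 weeks old, males and females mixed. The uninjured group had 2 libraries, each of 4 pooled mice. After an open non-stabilized tibial fracture, the injured periosteum and hematoma were taken at day 3 (2 libraries), day 5 (1 library) and day 7 (1 library) from pools of 4 to 9 mice. The labels give no transgene for any group. Mice with a fracture were anesthetized with ketamine and medetomidine, reversed with atipamezole, and given buprenorphine, and their libraries add hematoma to periosteum. Injury, agents and tissue therefore cannot be told apart in a comparison with the uninjured group, and days 5 and 7 have no replicate.

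The libraries held 13551 barcodes and 55293921 UMIs (unique molecular identifiers, each marking 1 captured RNA molecule), from 1499281 to 29796296 UMIs per library. After filtering, 8067 nuclei remained, 644 to 2422 per library, and fell into 26 clusters. Clusters were named from markers that include neither the 3 genes nor Col2a1, and 3 clusters of 714 nuclei stayed unnamed. The 2578 nuclei of SSPC-like (skeletal stem/progenitor), fibroblast-like, IIFC-like (injury-induced fibrogenic), tendon-like, osteoblast-like and chondrocyte-like clusters are called stromal here. Pairs of libraries shared at most 7 barcodes. In 3 libraries (uninjured replicate 1, day 5 and day 7) the counts came from Cell Ranger 6.0.0 and in the other 3 from version 7.1.0, so both unreplicated days were counted with the same version.

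The chondrocyte-like cluster was led by Hapln1, Col2a1, Col9a1, Matn3 and Col9a3, all genes of cartilage matrix, which matches its name. It held 142 nuclei at day 5 and 222 at day 7, which made up 13.6% and 33.3% of stromal nuclei. In the uninjured and day 3 libraries it held 3, 1, 3 and 6 nuclei, so its levels are given for days 5 and 7.

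The genes differ greatly in size. Sox5 (ENSMUSG00000041540) spans 953.553 kb on the minus strand at chr6:143828425-144781977, Sox6 (ENSMUSG00000051910) spans 567.925 kb on the minus strand at chr7:115470872-116038796, and Sox9 (ENSMUSG00000000567) spans 5.537 kb on the plus strand at chr11:112782224-112787760, all in GRCm38 with the GENCODE M21 annotation. Over all barcodes, 23778 UMIs were counted for Sox5, 45936 for Sox6 and 2492 for Sox9. Introns were counted and lengths differ, and levels are therefore compared between populations and times but not between the 3 genes. Genes annotated on the strand opposite to Sox5 took 401 UMIs, equal to 1.69% of those of Sox5.

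The HMG boxes of this family recognise short sites such as ACAAT and ACAAAG. Both strands (ATTGT and CTTTGT for the opposite one) were searched in 300-base RefSeq promoters on GRCm38.p6, from 250 bases before to 50 after each start, and a match to one of these words cannot be a match to the other at the same position. ACAAT was present in 31.0% of 32851 promoters and ACAAAG in 18.7%. Sox5 matched 1 promoter, which held ACAAT, and Sox6 matched 6, of which 3 held ACAAT and 5 held ACAAAG. Of 17 cartilage genes (for matrix and membrane proteins, and for the ubiquitin ligase Wwp2), 13 matched 16 promoters, and 1 of these (Hapln1, the link protein that ties aggrecan to hyaluronan) held ACAAT and 0 held ACAAAG. The promoters below are shown because they are the start regions of the 2 SoxD genes and of the leading gene of the chondrocyte-like cluster, with matches in capitals. They are Sox5 on the minus strand at chr6:143947057-143947356, which lies inside the annotated span of the gene, the most upstream promoter of Sox6 on the minus strand at chr7:116038695-116038994, an internal promoter of Sox6 on the minus strand at chr7:115824661-115824960, and Hapln1 on the plus strand at chr13:89540386-89540685. A match is a description of the sequence and was not tested for binding.
Sox5: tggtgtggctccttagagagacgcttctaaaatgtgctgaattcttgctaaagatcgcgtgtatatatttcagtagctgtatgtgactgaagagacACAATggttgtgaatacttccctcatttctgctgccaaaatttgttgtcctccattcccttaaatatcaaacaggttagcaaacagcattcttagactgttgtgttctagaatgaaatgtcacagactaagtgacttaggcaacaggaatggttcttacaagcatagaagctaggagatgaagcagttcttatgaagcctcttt
Sox6 upstream: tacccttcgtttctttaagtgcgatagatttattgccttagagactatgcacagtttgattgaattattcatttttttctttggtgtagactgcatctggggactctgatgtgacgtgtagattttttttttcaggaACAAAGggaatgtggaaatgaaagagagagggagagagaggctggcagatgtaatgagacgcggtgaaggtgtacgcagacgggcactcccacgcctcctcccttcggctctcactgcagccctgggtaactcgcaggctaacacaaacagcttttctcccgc
Sox6 internal: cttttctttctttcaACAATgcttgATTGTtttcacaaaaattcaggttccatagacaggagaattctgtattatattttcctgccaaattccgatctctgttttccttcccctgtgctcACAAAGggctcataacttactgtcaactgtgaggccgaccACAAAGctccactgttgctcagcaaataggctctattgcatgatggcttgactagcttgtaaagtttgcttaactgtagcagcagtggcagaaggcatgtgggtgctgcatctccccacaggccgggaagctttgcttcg
Hapln1: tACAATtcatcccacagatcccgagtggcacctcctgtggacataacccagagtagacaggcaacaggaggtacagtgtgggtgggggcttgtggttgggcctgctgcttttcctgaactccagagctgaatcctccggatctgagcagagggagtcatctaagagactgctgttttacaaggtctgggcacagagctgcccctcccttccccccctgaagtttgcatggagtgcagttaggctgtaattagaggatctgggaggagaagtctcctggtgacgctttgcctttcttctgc

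The 3 genes had different population maps, and the chondrocyte-like nuclei were high for all of them. In CPM (the gene's UMIs in every 1000000 UMIs of the summed nuclei), Sox5 in chondrocyte-like nuclei was 1695 CPM at day 5 (95% counting interval 1612 to 1782) and 2416 CPM at day 7 (2287 to 2551). Sox6 was 5361 CPM (5212 to 5513) and 4164 CPM (3993 to 4340), and Sox9 was 357 CPM (319 to 398) and 184 CPM (149 to 224). Sox5 was thus higher at day 7 and the other 2 genes higher at day 5, in 1 library each, with intervals that do not overlap but cover counting error alone. The 6 chondrocyte-like nuclei of day 3 replicate 2 already gave 1807 CPM for Sox5, 1807 CPM for Sox6 and 309 CPM for Sox9.

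**Figure D1:**
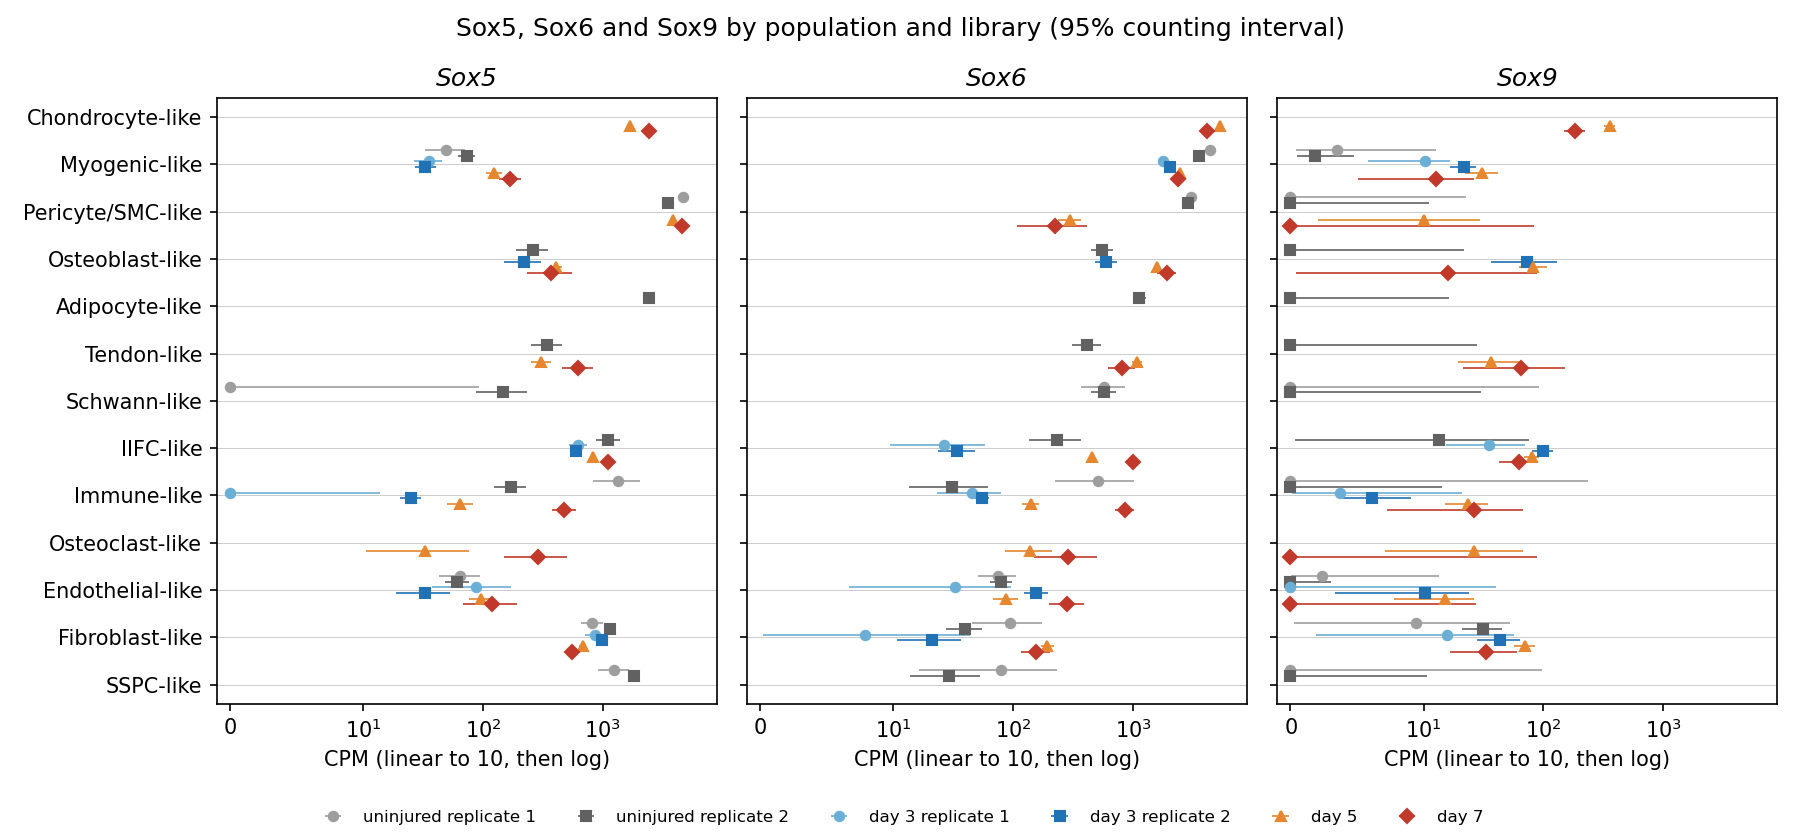
Levels of Sox5, Sox6 and Sox9 (CPM, linear to 10 and logarithmic above) in each population, 1 point for each library with at least 20 nuclei of that population, with 95% counting intervals and populations ordered by mean Sox6. Chondrocyte-like nuclei lead for Sox6 and Sox9, and pericyte/SMC-like nuclei, at 3460 to 4678 CPM, lead for Sox5.

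Sox9 had the narrowest map. Over libraries with at least 20 nuclei, its mean was 270 ± 122 CPM (SD, n = 2 libraries) in chondrocyte-like nuclei, followed by IIFC-like nuclei at 58.1 ± 34.1 CPM (n = 5), osteoblast-like at 42.8 ± 40.9 (n = 4), tendon-like at 34.0 ± 32.8 (n = 3) and fibroblast-like at 33.9 ± 21.6 (n = 6). The step from chondrocyte-like to IIFC-like was larger than the SD of either, and every later step in the order was within it. These means, here and for the other 2 genes, pool libraries of different days. Their SD therefore mixes time and injury with the spread between pools. The sets of libraries also differ, with chondrocyte-like means from days 5 and 7 alone, so the steps are a description. Sox9 was at 0 CPM in SSPC-like, adipocyte-like and Schwann-like nuclei of these libraries. In SSPC-like nuclei of all libraries together 1 UMI of Sox9 was counted, at day 7.

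Sox6 was spread over cartilage, muscle, vessel wall and bone. Its means ran from 4762 ± 846 CPM (n = 2) in chondrocyte-like nuclei to 2767 ± 995 (n = 6) in myogenic, 1602 ± 1551 (n = 4) in pericyte/SMC-like, 1158 ± 686 (n = 4) in osteoblast-like, 1128 (n = 1) in adipocyte-like, 766 ± 336 (n = 3) in tendon-like and 574 ± 3.21 (n = 2) in Schwann-like nuclei. Lower levels were found in IIFC-like (348 ± 401, n = 5), endothelial-like (118 ± 89.4), fibroblast-like (85.0 ± 75.8, n = 6) and SSPC-like nuclei (54.2 ± 35.8, n = 2). Among neighbours in this order, chondrocyte-like and myogenic nuclei, and adipocyte-like and tendon-like nuclei, differed by more than the larger SD, and the others did not.

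Sox5 was high in vessel wall and stroma. Pericyte/SMC-like nuclei led at 4146 ± 581 CPM (n = 4), above adipocyte-like at 2442 (n = 1), chondrocyte-like at 2056 ± 510 (n = 2), SSPC-like at 1528 ± 398 (n = 2), IIFC-like at 851 ± 248 (n = 5), fibroblast-like at 841 ± 210 (n = 6), tendon-like at 420 ± 170 (n = 3) and osteoblast-like at 312 ± 86.8 (n = 4). Myogenic nuclei, high for Sox6, were at 80.5 ± 54.9 CPM for Sox5, and endothelial-like nuclei were at 76.7 ± 30.2. The steps from pericyte/SMC-like to adipocyte-like, chondrocyte-like to SSPC-like, SSPC-like to IIFC-like and fibroblast-like to tendon-like exceeded the larger SD. IIFC-like and fibroblast-like nuclei did not differ beyond their spread.

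The cells that supplied each gene's UMIs differed over the time course. Without injury, myogenic nuclei held 79.5% and 82.2% of the Sox6 UMIs. At day 3 they held 97.6% and 89.6%, and on days 5 and 7 they held 28.5% and 28.6%, while chondrocyte-like nuclei held 42.6% at day 5 and 48.7% at day 7. Of the Sox5 UMIs, pericyte/SMC-like nuclei held 60.4% and 29.6% without injury, and chondrocyte-like nuclei held 22.9% at day 5 and 48.6% at day 7. Of the Sox9 UMIs, myogenic nuclei held 16 of 32 and 66 of 250 at day 3, IIFC-like nuclei held 8 and 96 of these, and chondrocyte-like nuclei held 41.1% and 59.3% at days 5 and 7. All these shares are of the UMIs in classified nuclei. Barcodes outside the filter held a further part, which for Sox9 was 75.2% of the library's UMIs in day 3 replicate 2 and 67.6% at day 7. For Sox5 and Sox6 it was 75.1% and 45.5% in day 3 replicate 2. The shares also depend on how many nuclei of each population were caught as well as on the level per nucleus.

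In all stromal nuclei together, Sox9 rose over the days after fracture. Its level was 11.7 and 17.9 CPM in the uninjured libraries, 32.7 and 73.4 CPM at day 3, 118 CPM at day 5 and 95.7 CPM at day 7. Each fractured library lay above both uninjured ones, and the uninjured values rest on 2 and 29 UMIs. The slope was 0.45 ± 0.09 log2 units per day (SE, 6 libraries), or 1.36-fold per day (edgeR's quasi-likelihood test, Benjamini-Hochberg adjusted p = 0.0399). All 3 genes passed the filter on low counts, and Sox9 was the 1 of them called, against 2.00% of the 11450 genes tested. Called genes that rose made up 0.664% and those that fell 1.34%. The adjusted p of Sox9 rested on both uninjured libraries, with 0.194 when replicate 1 was left out and 0.259 when replicate 2 was, and it was 0.134 without day 5, 0.0524 without day 3 replicate 1 and 0.0880 with a term for the Cell Ranger version.

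Sox6 in stromal nuclei was 164 and 132 CPM without injury, 70.1 and 148 CPM at day 3, 1330 CPM at day 5 and 1919 CPM at day 7. The uninjured and day 3 libraries overlapped, and days 5 and 7 stood far above them. The slope was 0.60 ± 0.13 per day, or 1.52-fold, with an adjusted p of 0.0607 by edgeR's quasi-likelihood test, which misses the threshold of 0.05. The levels stepped up after day 3 rather than along a straight line, and this departure counts as spread in the test. DESeq2 gave an adjusted p of 0.0039 for Sox6.

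Sox5 was present throughout, with 936 and 1126 CPM without injury, 635 and 681 CPM at day 3, 874 CPM at day 5 and 1392 CPM at day 7. Both day 3 libraries were below every other library. The slope over the days was 0.07 ± 0.07 (adjusted p = 0.724, edgeR's quasi-likelihood test), and without day 7 it was -0.08. Within fibroblast-like nuclei Sox5 was 818 and 1144 CPM without injury and 858 and 989 CPM at day 3, so the groups overlapped. Within IIFC-like nuclei it was 1073 and 1110 CPM without injury, from 18 and 45 nuclei, and 621 and 594 CPM at day 3, so the groups did not overlap. SSPC-like nuclei, with a higher Sox5 mean, numbered 22 and 54 without injury, and day 3 replicate 2 held 5.

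**Figure D2:**
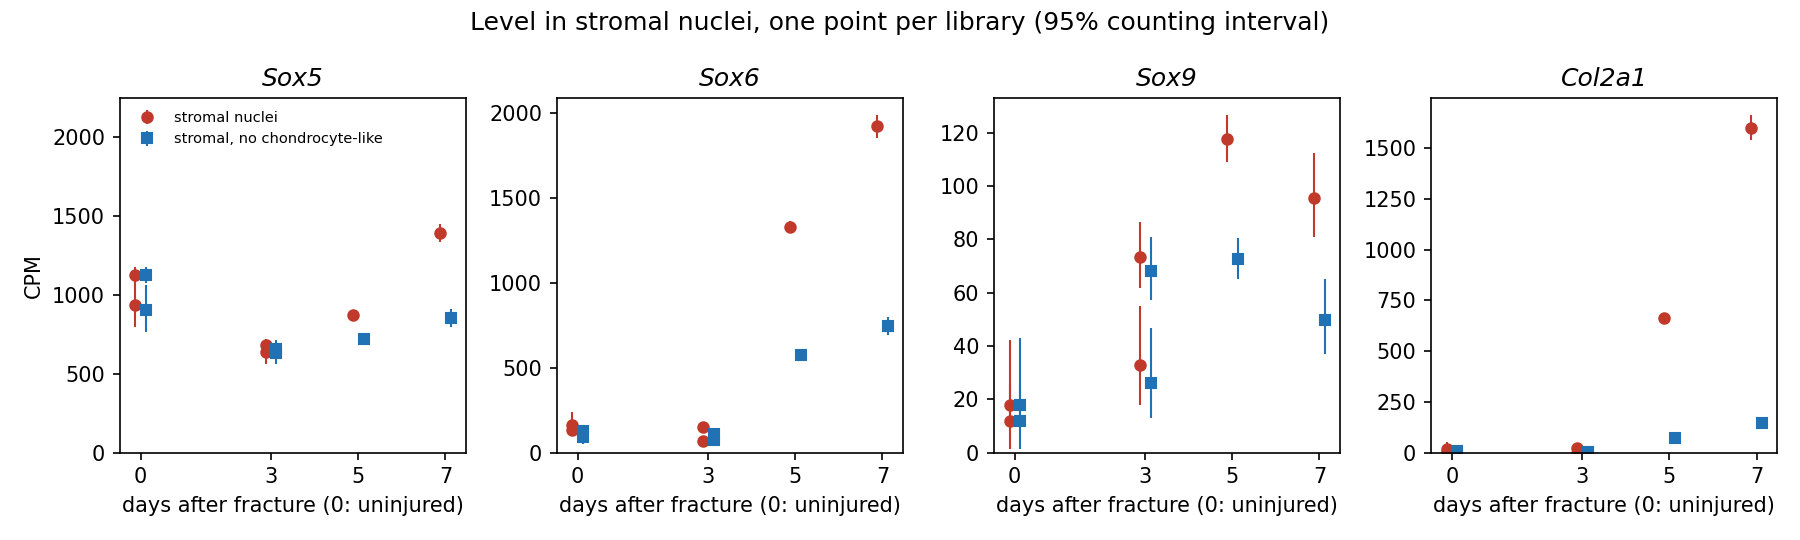
Levels (CPM) of Sox5, Sox6, Sox9 and Col2a1 against days after fracture (0 is uninjured), 1 point per library with its 95% counting interval, for stromal nuclei (red circles) and stromal nuclei without the chondrocyte-like ones (blue squares). Sox6 stays high at days 5 and 7 outside the chondrocyte-like nuclei, at 572 and 745 CPM, against 71.1 to 130 CPM in the earlier libraries.

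With the chondrocyte-like nuclei left out, Sox6 was 89.4 and 130 CPM without injury, 71.1 and 112 CPM at day 3, 572 CPM at day 5 and 745 CPM at day 7. Its slope was 0.45 ± 0.10 per day (adjusted p = 0.0846). Sox9 was 11.9 and 18.0, then 26.1 and 68.3, then 72.7 and 49.6 CPM, with a slope of 0.30 ± 0.10 (adjusted p = 0.202), and Sox5 had a slope of -0.02 ± 0.06 (adjusted p = 0.935). By edgeR's quasi-likelihood test, 0 of the 3 genes was called, where 1.38% of 10908 genes were, 0.321% higher and 1.05% lower. Without the filter on low counts, both Sox6 and Sox9 passed the threshold here, and DESeq2 called Sox6. Immune-like nuclei of the same libraries, not known for Sox6, were at 140 CPM at day 5 and 854 CPM at day 7, and the part of free RNA in the stromal levels was not tested.

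Outside the chondrocyte-like nuclei, osteoblast-like nuclei had the highest Sox6 level of the 4 other stromal populations given here at days 5 and 7. Osteoblast-like nuclei had 1576 and 1905 CPM, tendon-like nuclei 1077 and 812 CPM, IIFC-like nuclei 452 and 994 CPM, and fibroblast-like nuclei 193 and 155 CPM. In IIFC-like nuclei the day 3 level of Sox6 was 26.6 and 34.1 CPM, below the 44.9 and 54.6 CPM of immune-like nuclei of those libraries. At day 7 the tendon-like and IIFC-like levels overlap that of the immune-like nuclei within counting error, whereas at day 5 both are above it.

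At day 3 against uninjured, with 2 libraries in each group, the fitted difference in stromal nuclei was 1.71 ± 0.57 log2 units for Sox9 (3.26-fold), -0.41 ± 0.38 for Sox6 and -0.63 ± 0.36 for Sox5. The adjusted p-values of edgeR's quasi-likelihood test were 0.0870, 0.611 and 0.349. None of the 3 passed, where 9.75% of 9953 genes did, 4.37% higher and 5.38% lower at day 3. The 2 groups overlapped for Sox6 and not for Sox5 or Sox9. Group means were 14.8 ± 4.42 and 53.1 ± 28.8 CPM for Sox9, 148 ± 22.1 and 109 ± 55.4 CPM for Sox6, and 1031 ± 135 and 658 ± 32.2 CPM for Sox5, the day 3 mean second in each pair. With 1 library left out in turn, where the lone library of an arm is assumed to vary like the other group, the adjusted p of Sox9 ran from 0.0389 (difference 2.02, without day 3 replicate 1) to 0.547 (difference 1.21, without day 3 replicate 2). Of the day 3 Sox9 UMIs of stromal nuclei, most came from IIFC-like nuclei, whose level was 35.5 CPM (8 UMIs) and 99.1 CPM (96 UMIs), then 79.8 CPM at day 5 and 62.5 CPM at day 7.

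Most of the listed cartilage genes rose over the same days. Of the 17 cartilage genes, 15 were tested in stromal nuclei, and 11 rose, 0 fell and 4 did not pass, where 0.664% of all genes tested rose. The median slope of the 15 was 0.94 per day, and over all genes tested it was -0.0001. Col9a1, Col9a2, Col9a3, Matn3, Cnmd and Ucma were at 0 to 1.86 CPM in the uninjured libraries, too low to be tested at day 3. They passed the filter through days 5 and 7 and could hardly fall, so the counts of rising genes here are a description. The largest slopes were those of Col9a1 (1.73 ± 0.21, adjusted p = 0.0177), Col9a2 (1.64), Matn3 (1.51), Col2a1 (1.34 ± 0.23, adjusted p = 0.0281), Col9a3 (1.26) and Cnmd (1.25), by edgeR's quasi-likelihood test. Type IX collagen, whose 3 chains these are, decorates type II collagen fibrils, and Cnmd encodes chondromodulin, which keeps vessels out of cartilage. Acan, the aggrecan core protein, had a slope of 1.04 (adjusted p = 0.0325). Without the chondrocyte-like nuclei, 13 were tested and 6 rose (Acan, Col9a1, Col9a2, Col9a3, Matn3 and Wwp2). The median slope of the 13 was 0.65, and 0.321% of all genes tested rose. In pericyte/SMC-like nuclei Acan was at 0 CPM without injury, 70.9 CPM (21 UMIs) at day 5 and 67.3 CPM (3 UMIs) at day 7. Col9a1 there was 0, 6.75 and 67.3 CPM, and Matn3 was 0, 6.75 and 0 CPM. At equal depth per nucleus, an Acan UMI was found in 5.30% of immune-like nuclei at day 5 and 19.1% at day 7. The part of free RNA in the 6 rises was not tested. Acan, Hapln1, Col9a1, Col11a2, Matn3 and Fgfr3 were also used to name the chondrocyte-like nuclei.

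Col2a1 itself was 17.5 and 4.33 CPM without injury, 0 and 23.8 CPM at day 3, 665 CPM at day 5 and 1599 CPM at day 7 in stromal nuclei. Days 5 and 7 stood far above the other 4 libraries, as for Sox6. In chondrocyte-like nuclei Col2a1 was 3809 CPM at day 5 and 4375 CPM at day 7.

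Over the same stromal trend, in which 2.00% of all genes tested were called and 0.664% rose, other regulators were looked up. Of 15 chondrogenic regulators and partners, 11 were tested and 1 rose, Trps1 (0.48, adjusted p = 0.0357), a GATA-type repressor active in cartilage. Of the hypertrophy genes 3 of 6 tested rose, namely Col10a1 (1.07), the collagen of hypertrophic cartilage, Pth1r (0.47), the receptor of PTHrP, and Alpl (0.43), the phosphatase of mineralising matrix. Col10a1 was at 0 and 1.24 CPM without injury and 0 and 3.04 CPM at day 3, too low to be tested at day 3. It passed the filter through days 5 and 7 and could hardly fall, so its rise is a description. Of the osteoblast genes 1 of 6 rose, Alpl. Runx2, the master factor of bone, had a slope of 0.32 (adjusted p = 0.214), Sp7, which acts after it, 0.21 (adjusted p = 0.292), and Postn, periostin, 0.70 (adjusted p = 0.126). Without the chondrocyte-like nuclei, 0 of 11 regulators, 0 of 5 hypertrophy genes and 0 of 6 osteoblast genes tested were called. There 1.38% of 10908 genes were called. The Trps1 slope was 0.48 there too (adjusted p = 0.106, edgeR's quasi-likelihood test). Of 11 further factors that the study grouped with the 3 genes as a chondrogenic core on these same samples, 0 were called over all stromal nuclei in edgeR's quasi-likelihood test. Of their 11 slopes 10 were positive. The study formed that core from the activity of regulons, each a factor with its target genes, in differentiated chondrocytes. A factor's own RNA over days in stromal nuclei is another measure. At day 3, Trps1 (1.43) and Wwp2 (1.56), known to interact with Sox9, were higher than without injury, and the hedgehog effector Gli2 (-2.47) and Zbtb20 (-1.59) were lower, each with an adjusted p under the threshold. In that contrast 9.75% of 9953 genes were called, 4.37% higher and 5.38% lower. Of the regulators 11 were tested and 8 not called, and of the cartilage genes 8 were tested and 7 not called.

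Within single chondrocyte-like nuclei, the 3 genes were seen together about as often as their separate shares give. Each nucleus was thinned to 500 UMIs so that depth is equal, because the median depth of chondrocyte-like nuclei was 5578.5 UMIs at day 5 and 1675 at day 7. A Sox5 UMI was then found in 52.8% of chondrocyte-like nuclei at day 5 (exact 95% interval 44.3 to 61.2) and 59.9% at day 7 (53.1 to 66.4), a Sox6 UMI in 83.1% (75.9 to 88.9) and 69.8% (63.3 to 75.8), and a Sox9 UMI in 15.5% (9.97 to 22.5) and 9.91% (6.32 to 14.6). At least 1 of the 3 was found in 94.4% and 90.1%. Sox5 and Sox6 were found together in 44.4% and 40.5%, where the product of their shares is 43.9% and 41.8%. All 3 were found in 7.04% (10 nuclei) and 4.95% (11 nuclei), where the product is 6.80% and 4.15%.

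At full depth more nuclei held each gene. All 3 were then found in 58.5% of chondrocyte-like nuclei at day 5 and 27.0% at day 7, Sox9 in 64.1% and 31.5%, Sox6 in 97.9% and 92.3%, and Sox5 in 90.1% and 86.9%. The product of the single shares was 56.5% and 25.3% for the 3 together.

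Among all stromal nuclei, those with a Col2a1 UMI held the 3 genes more often. At day 5, 124 nuclei had a Col2a1 UMI and 923 had none at 500 UMIs per nucleus. Sox6 was found in 66.9% (57.9 to 75.1) of the first and 19.8% (17.3 to 22.5) of the second, Sox5 in 62 of 124 nuclei (40.9% to 59.1%) and 25.5% (22.7 to 28.4), and Sox9 in 12.1% (6.93 to 19.2) and 3.58% (2.47 to 4.98). At day 7, with 196 and 469 nuclei, the shares were 67.9% (60.8 to 74.3) and 23.5% (19.7 to 27.6) for Sox6, 58.7% (51.4 to 65.6) and 27.3% (23.3 to 31.6) for Sox5, and 9.69% (5.94 to 14.7) and 1.49% (0.602 to 3.05) for Sox9. The intervals of each pair are apart on both days, and cells of 1 library are no replicates.

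Inside the chondrocyte-like nuclei the contrast was looked for again at 500 UMIs. At day 5 Sox6 was found in 83.5% of the 91 nuclei with a Col2a1 UMI and 82.4% of the 51 without, Sox9 in 15.4% and 15.7%, and Sox5 in 57.1% and 45.1%. At day 7 the shares were 71.3% of 174 and 64.6% of 48 for Sox6, 10.9% and 6.25% for Sox9, and 61.5% and 54.2% for Sox5. The intervals overlap in each pair, so a difference was not detectable at this depth. Unthinned, Sox5 was found in 93.6% (87.8 to 97.2) of 125 nuclei with a Col2a1 UMI and 64.7% (38.3 to 85.8) of 17 without at day 5, and in 89.7% (84.7 to 93.5) of 204 and 55.6% (30.8 to 78.5) of 18 at day 7. These intervals are apart, and the nuclei with a Col2a1 UMI were also deeper, with medians of 5664 against 4083 and 1753 against 842 UMIs. In the other stromal nuclei, Sox6 was found in 21.2% of 33 nuclei with a Col2a1 UMI and 16.2% of 872 without at day 5, and in 40.9% of 22 and 18.8% of 421 at day 7, again with overlapping intervals. In immune-like nuclei thinned alike, a Sox5 UMI was found in 3.41%, a Sox6 UMI in 4.36%, a Sox9 UMI in 2.65% and a Col2a1 UMI in 6.82% of 528 nuclei at day 5, and in 18.3%, 20.6%, 1.53% and 19.1% of 131 nuclei at day 7. Their median depths were 1515.5 and 732 UMIs. The Sox6 share of 23.5% in stromal nuclei without Col2a1 at day 7 lies within the interval of these immune-like nuclei (14.0 to 28.6). Sox6 and Col2a1 were found together in 9.92% of the immune-like nuclei of day 7, where the product of their shares is 3.93%, so their UMIs were not spread evenly over these nuclei. Sox9 in IIFC-like nuclei was above the immune-like level at day 5, at 79.8 CPM (68.7 to 92.1) against 23.4 CPM (15.2 to 34.6), and at day 7 the intervals overlapped.

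**Figure D3:**
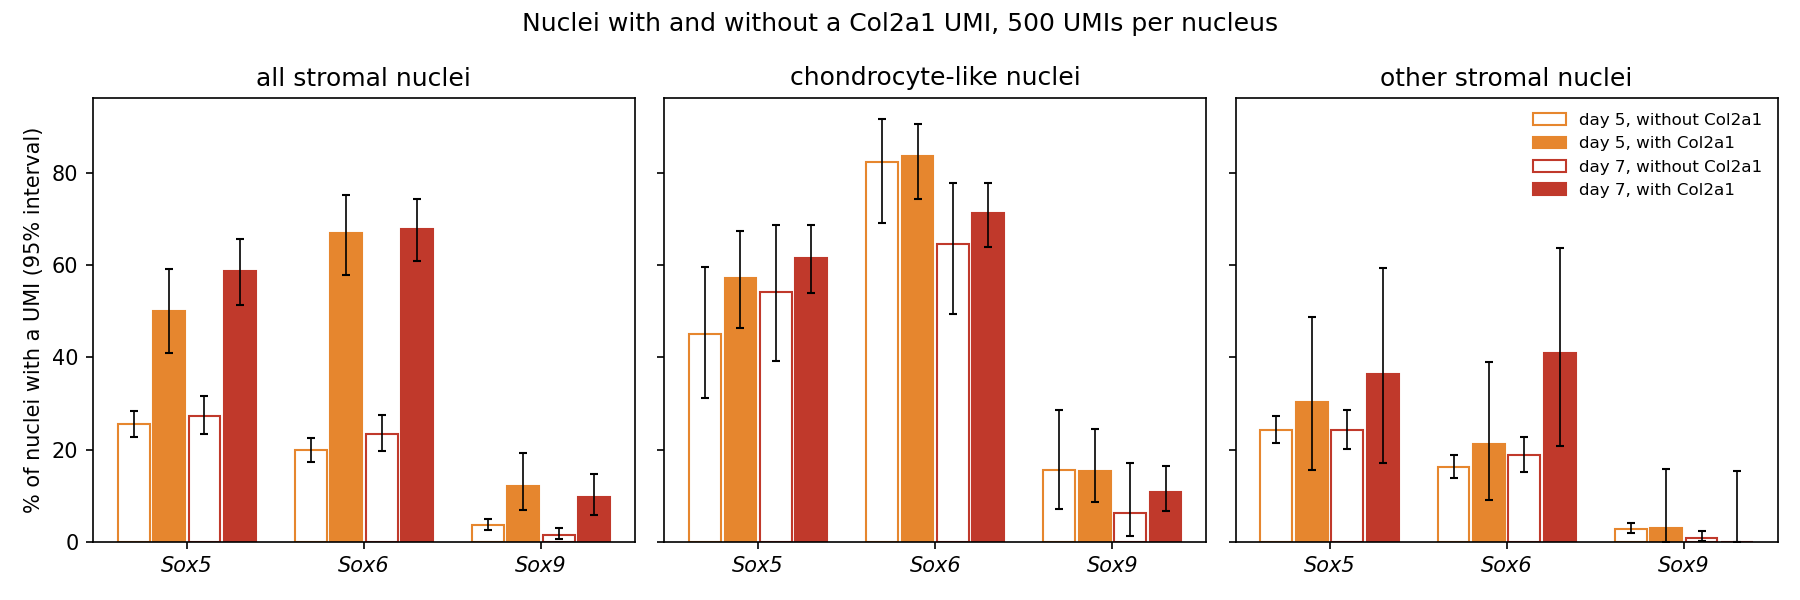
Share of nuclei (%) with a UMI of Sox5, Sox6 or Sox9 among nuclei without (open bars) and with (filled bars) a Col2a1 UMI at days 5 and 7, at 500 UMIs per nucleus with exact 95% intervals, for all stromal, chondrocyte-like and other stromal nuclei. Sox6 separates the bars in all stromal nuclei, at 19.8% against 66.9% on day 5, and the bars of the chondrocyte-like ones overlap within their intervals.

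Acan and Runx2 gave other splits. In chondrocyte-like nuclei of day 5, Sox9 was found in 23.9% (14.3 to 35.9) of the 67 nuclei with an Acan UMI and 8.00% (2.99 to 16.6) of the 75 without. In IIFC-like nuclei of day 5, Sox6 was found in 31.0% (19.5 to 44.5) of the 58 with an Acan UMI and 8.18% (5.41 to 11.8) of the 318 without, so their intervals are apart. Runx2 went the other way for Sox6 in osteoblast-like nuclei of day 5, with 35.9% (28.1 to 44.2) of 145 nuclei with a Runx2 UMI and 72.0% (50.6 to 87.9) of 25 without. In chondrocyte-like nuclei Sox6 was found in 62.5% (53.5 to 70.9) with and 79.8% (70.2 to 87.4) without Runx2 at day 7, and in 83.8% and 82.4% at day 5. These were picked out from the splits by 5 partner genes after their values were seen.

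Nuclei of more advanced cartilage were split out by a UMI of Col10a1 or Ihh, the signal made by prehypertrophic chondrocytes, a split chosen after the data were seen. At day 7 the 48 nuclei with such a UMI had 2289 CPM of Sox6 (2043 to 2556) against 4808 CPM (4595 to 5027) in the 174 without, and 3240 CPM of Sox5 (2946 to 3555) against 2133 CPM (1992 to 2281). Sox9 was 189 and 182 CPM. In this library Sox6 was thus lower and Sox5 higher in these nuclei beyond counting error, the Sox9 intervals overlapped, and Runx2 was higher, at 5362 against 2308 CPM. At 500 UMIs per nucleus, Sox6 was found in 56.3% (41.2 to 70.5) and 73.6% (66.4 to 79.9), with overlapping intervals, and Sox5 in 79.2% (65.0 to 89.5) and 54.6% (46.9 to 62.1).

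At day 5 the split gave no such pattern. The 24 nuclei with a Col10a1 or Ihh UMI and the 118 without had 5236 and 5396 CPM of Sox6, 1706 and 1692 CPM of Sox5, and 318 and 368 CPM of Sox9. Runx2 was 3491 and 1818 CPM. Nuclei with such a UMI were deeper on both days (medians of 7429.5 against 5351 and of 2093.5 against 1582 UMIs), and the part of depth was not tested beyond the thinning.

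**Figure D4:**
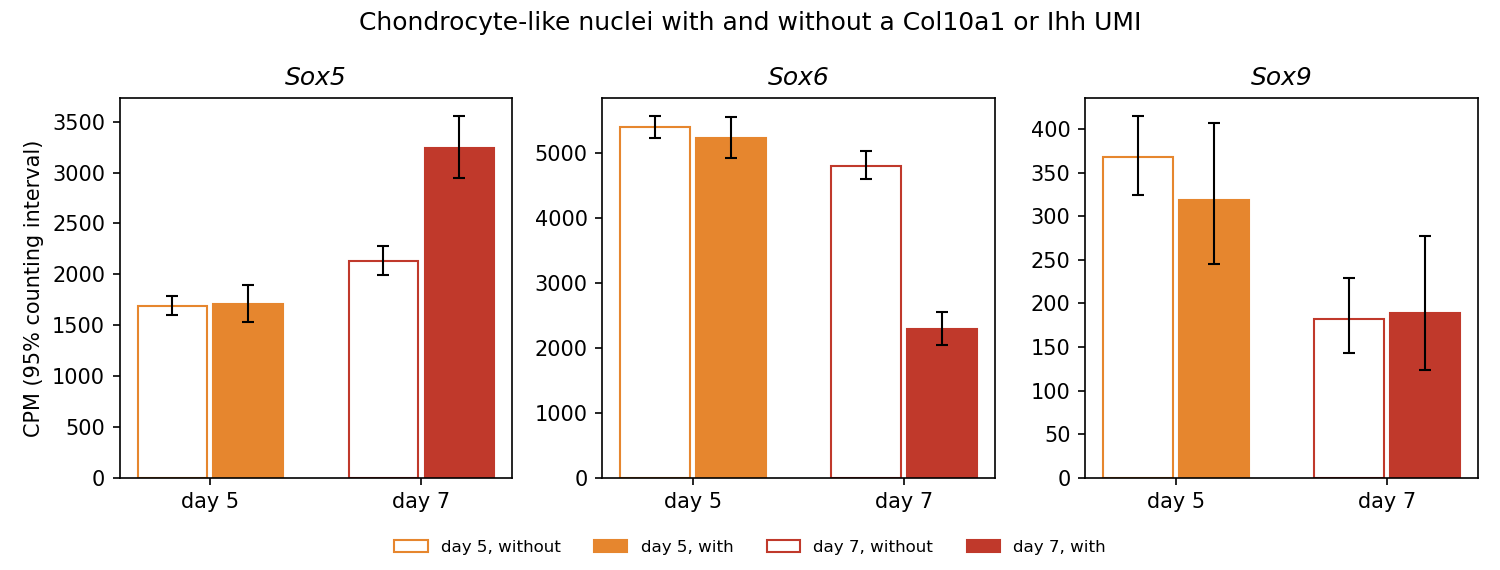
Levels (CPM) of Sox5, Sox6 and Sox9 in chondrocyte-like nuclei with (filled) and without (open) a Col10a1 or Ihh UMI at days 5 and 7, with 95% counting intervals. At day 7 Sox6 is at 2289 CPM with and 4808 CPM without, and Sox5 at 3240 and 2133 CPM; at day 5 both pairs lie close together.

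Outside the stroma, the pericyte/SMC-like nuclei carried both SoxD genes without injury. Sox5 was 4678 and 3460 CPM in the uninjured libraries, 3871 CPM at day 5 and 4575 CPM at day 7. Sox6 was 3034 and 2852 CPM without injury, and 297 and 224 CPM at days 5 and 7, so the uninjured and later libraries lay far apart. Markers of smooth muscle were lower in the same nuclei, with Myh11 at 4952 and 4749 CPM without injury and 604 and 404 CPM later, and Acta2 at 2406 and 2241, then 226 and 247 CPM, while Rgs5, a pericyte marker, was 305 and 324, then 1164 and 1032 CPM. The part of this shift in the Sox6 level was not tested. The day 3 libraries held 4 and 9 of these nuclei.

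In myogenic nuclei Sox6 was 4377 and 3551 CPM without injury, 1779 and 2039 CPM at day 3, 2466 CPM at day 5 and 2392 CPM at day 7. The uninjured libraries were above every fractured one. At day 3 the difference was -1.17 ± 0.38 log2 units (adjusted p = 0.152, edgeR's quasi-likelihood test, and 0.0389 by DESeq2), where 2.03% of 10076 genes were called, 0.992% higher and 1.04% lower. Sox9 in the same nuclei had a difference of 2.57 ± 0.69 (adjusted p = 0.105) and Sox5 of -0.97 ± 0.38 (adjusted p = 0.225). The Sox9 difference rests on 2 and 4 UMIs without injury (3.52 and 1.88 CPM) and 16 and 66 UMIs at day 3 (10.2 and 21.5 CPM). The part of free RNA in it was not tested.

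In the other populations that allowed a test at day 3, 1 call was made. In immune-like nuclei Sox5 had a difference of -4.99 ± 0.95 (adjusted p = 0.0169, edgeR's quasi-likelihood test), where 0.239% of 5016 genes were called. It rested on uninjured replicate 1, whose 22 immune-like nuclei had 1346 CPM of Sox5 against 0 to 170 CPM in uninjured replicate 2 and day 3. Without that library the difference was -3.32 (adjusted p = 0.516), and DESeq2 gave an adjusted p of 0.859. Those 22 nuclei had 577 CPM of 7 immune markers together (6 of 7 found, Csf3r at 0) against 4550 to 7651 CPM in the other 3 libraries, beside 1475 CPM of endothelial markers. In fibroblast-like nuclei, where 5.68% of 5987 genes were called (2.39% higher and 3.29% lower), and in endothelial-like nuclei, where 3.74% of 6795 were, none of the 3 genes passed the test. Fibroblast-like differences were -0.08 ± 0.40 for Sox5, -1.77 ± 0.75 for Sox6 and 0.39 ± 0.72 for Sox9.

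Among endothelial-like clusters, 1 of 123 nuclei led by Gja5, Sema3g and Bmx, genes of arterial endothelium, had a Sox6 level of 403 CPM (345 to 468) against 32.8 to 89.3 CPM in the others. Schwann-like nuclei of the uninjured libraries had 576 and 572 CPM of Sox6 with Sox9 at 0, and SSPC-like nuclei had 1247 and 1810 CPM of Sox5 with 79.6 and 28.9 CPM of Sox6.

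The genes whose pattern was most like each were sought over 49 pairs of a population and a library with at least 20 nuclei, as Pearson's r of log2(CPM + 10) among 10891 genes. For Sox9 they were C1qtnf3 (0.86), Aldh1l2 (0.84), Eef1akmt3 (0.81), Capn6 (0.81) and Itm2a (0.79), for Sox5 Ebf2 (0.84), Cacna1c (0.81), Gpc6 (0.78), Col6a3 (0.77) and Dlc1 (0.76), and for Sox6 Slc8a3 (0.72), Pde4dip (0.72), Kcnq5 (0.65), Rab11fip3 (0.65) and Speg (0.64). None of these is shared between the 3 lists. The 3 genes were little alike over the same pairs, with r of 0.09 for Sox5 and Sox6, 0.22 for Sox5 and Sox9 and 0.18 for Sox6 and Sox9. With Col2a1, r was 0.57 for Sox9, 0.43 for Sox6 and 0.28 for Sox5. With Acan it was 0.72, 0.37 and 0.26 in the same order, and with Runx2 0.68, 0.05 and 0.23. Sox9 was thus more like Runx2 than like Col2a1 over these pairs. The pairs share libraries and depth, and these values are descriptions.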

How the data were processed

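Per the labels and the study's methods, the authors sorted nuclei by Sytox-AAD, made 10x 3′ v3.1 libraries and ran Cell Ranger (6.0.0 or 7.1.0) with exons and introns. The protocol in the labels names a human reference, whereas the gene identifiers are those of mouse and the study's methods name a mouse genome; the values were read as mouse. The authors deposited UMI counts per gene and barcode, whole numbers that were not normalized. Barcodes outside 200 to 5000 genes, or with over 2% mitochondrial or 1.5% ribosomal UMIs, were left out here. Scrublet marked 139 doublets, which were kept. Myogenic nuclei were set aside in each library (scanpy 1.11.5, Python 3.11.15), and the rest were integrated in Seurat 5.3.0 (R 4.3.3, 20 components, 2000 features, resolution 1.3) without the 3 genes, Col2a1, markers and listed genes as features. Clusters were named from marker scores scaled to the highest cluster, a rule set after the clusters were seen. Columns of values with no sample numbered 0.

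Counts were summed per population and library and tested with edgeR 4.0.16 (limma 3.58.1; filterByExpr, TMM, quasi-likelihood test, Benjamini-Hochberg over all genes, threshold 0.05), as a slope over days 0, 3, 5 and 7 and as day 3 against uninjured. Libraries are pools of mice, and p-values measure the spread between pools. In the slope tests, any departure of the levels from a straight line over the days counts as spread too. CPM intervals are exact Poisson and share intervals Clopper-Pearson at 95%, and both cover counting error only; levels were compared over at least 20 nuclei, and nuclei under 500 UMIs were left out of thinned shares. The test was checked on simulated counts. Named were the 3 genes, up to 6 called members of each list by slope, 9 fixed genes and the 5 most similar genes (log2 pseudocount 10, at least 50 CPM in 1 pair). The members and lists were chosen with earlier results of these data known. Alternatives were a mitochondrial limit of 5%, resolution 0.8, no integration, doublets removed, tendon-like nuclei left out, all non-myogenic nuclei, a Cell Ranger term, DESeq2 1.42.0, no count filter, 1000 UMIs or no thinning, other handling of unnamed clusters, and each library left out.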

Additional observations from a re-analysis of the deposited data

Results flagged for a closer look

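Signal was found in the barcodes that the filter left out, 114 at day 5, 2097 at day 7 and 2989 in day 3 replicate 2, above both uninjured libraries (11 and 272 barcodes). In these barcodes Sox9 was 38.7 CPM in day 3 replicate 2, 171 CPM at day 5 and 191 CPM at day 7, against 0 and 15.9 CPM without injury. Sox6 at day 5 was 948 CPM, against 725 and 528 CPM. The 725 CPM of uninjured replicate 1 rests on 8 UMIs, so the gap to it is within counting error. Its 11 barcodes held 0 UMIs of Sox9, Sox2 and Sox11, which is also a weak reference. Sox2 at day 7 was 304 CPM, against 0 and 1.98 CPM, and Sox11 was 26.1 CPM in day 3 replicate 2 and 1414 CPM at day 7, against 0 and 1.98 CPM. At day 7 Lhx2 (484 CPM) and Wnt8b (452 CPM) were also counted there. Sox2, Sox11, Lhx2 and Wnt8b are known from neural progenitors and were picked out after their values were seen. The source of these barcodes was not tested.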

How the results depend on the processing

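Of 370 values of 46 results under other settings, 283 stayed the same by the rule for their kind and 87 did not. Slopes and differences had to keep their direction and side of the threshold. Counts of called genes had to stay of similar size, and levels and shares within the counting interval of the main setting. Differences within the same Cell Ranger version had to keep their direction and lie within the SE of the main fit. In stromal nuclei the trend called 16 genes over all non-myogenic nuclei, 128 with unnamed clusters counted in their closest class, 743 by DESeq2, 1148 without the count filter and 0 to 283 with a library left out, where 0 genes were called without either uninjured library by edgeR (1137 and 1202 at an unadjusted p under 0.05). The Sox9 slope, no longer called, was 0.43 at 5% mitochondrial UMIs, 0.61 over all non-myogenic nuclei, 0.47 with the Cell Ranger term and 0.45 with unnamed clusters in their closest class, and 0.40 to 0.57 with a library left out. The Sox6 slope passed by DESeq2 (0.59) and without the filter (0.62), and was 0.55 to 0.66 with a library left out; that of Sox5 was -0.080 to 0.12. Without chondrocyte-like nuclei the counts were 96 at 5% mitochondrial UMIs, 67 with the closest class, 580 by DESeq2, 1252 without the filter and 0 to 209 with a library left out. There the Sox6 slope passed by DESeq2 (0.44) and without the filter (0.45) and ranged from 0.40 to 0.57, the Sox9 slope passed without the filter (0.31) and ranged from 0.25 to 0.44, and the Sox5 slope was 0.029 with the Brinp1-led cluster unnamed and -0.12 to 0.022 with a library left out.

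At day 3, over all non-myogenic nuclei the differences were -1.88 for Sox5 and -2.68 for Sox6. Against the uninjured library of the same Cell Ranger version they were -0.86 and -0.025 for Sox6 and 0.87 and 1.78 for Sox9. With a library left out, 689 to 1181 genes were called, and the differences ranged from -0.82 to -0.49 for Sox5, -0.85 to -0.10 for Sox6 and 1.21 to 2.19 for Sox9. DESeq2 called 7 genes in immune-like and 647 in myogenic nuclei. With a library left out, 0 to 365 were called in immune-like, 0 to 204 in myogenic, 29 to 372 in endothelial-like and 133 to 536 in fibroblast-like nuclei, and the sign turned in the ranges of Sox5 in fibroblast-like (-0.34 to 0.15), Sox6 in immune-like (-2.42 to 0.76) and Sox5 (-1.14 to 0.48) and Sox6 (-1.23 to 0.80) in endothelial-like nuclei. Sox6 in chondrocyte-like nuclei at day 5 was 5792 CPM without integration and 5048 CPM at 5% mitochondrial UMIs. At 1000 UMIs per nucleus and with none thinned, all 3 genes were found in 22.5% and 58.5% of chondrocyte-like nuclei at day 5 and 13.0% and 27.0% at day 7. In stromal nuclei with a Col2a1 UMI, the shares at 1000 UMIs and unthinned were 63.0% and 82.9% (Sox5) and 22.1% and 44.3% (Sox9) at day 5, where Sox6 was 77.9% at 1000 UMIs, and 77.7% and 83.3% (Sox5), 83.2% and 83.7% (Sox6) and 16.8% and 28.4% (Sox9) at day 7. The cause was not tested. No paired analysis was possible, because neither the labels nor the study's methods link a pool of mice in 1 group to a pool in another. Days 5 and 7 rest on 1 library each, and Sox9, with 2 to 29 UMIs in uninjured stromal nuclei, is limited by depth.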

Other observations

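Other Sox genes had their own places in the tissue. Of 17 listed, 2 passed the filter on low counts in stromal nuclei, Sox4 (slope 0.25, adjusted p = 0.556) and Sox13 (-0.29, adjusted p = 0.171, edgeR's quasi-likelihood test), and neither was called. Sox13, the remaining SoxD gene, was highest in endothelial-like nuclei, at 309 and 224 CPM without injury. In chondrocyte-like nuclei it was 7.66 CPM at day 5 and 3.71 CPM at day 7.

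Sox8 and Sox10 are the other SoxE genes. Sox8 in chondrocyte-like nuclei was 10.9 CPM (10 UMIs) at day 5 and 5.57 CPM (3 UMIs) at day 7. Sox10, a factor of Schwann cells, was 75.1 and 220 CPM in uninjured Schwann-like nuclei and 0 in stromal nuclei of every library. Sox11, of the SoxC group, was 26.2 CPM in IIFC-like nuclei at day 5 against 6.57 CPM in chondrocyte-like nuclei of the same library, with counting intervals of 20.0 to 33.6 and 2.41 to 14.3 CPM.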
